A study of Mus musculus with 8 samples.

Results

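The genes described here are 10 markers of macrophages and of the complement protein C1q: Csf1r, Emr1, Cd68, Mrc1, Cd163, Lyz2, C1qa, C1qb, C1qc and Mertk. They were chosen by name from the 19965 genes that the array measured through a RefSeq probe, and they were read through 14 of its 55681 probes. Thyroid RNA of 8 female Balb/c mice aged 8 weeks was hybridised to one-colour arrays, 1 thyroid per array. The exposed mice (S539, S588, S589 and S590) had been given 99mTcO4-, a radioactive anion that thyroid cells concentrate, at 30 Gy to the gland, and their RNA was taken 24 hours later. The 4 control mice (1 to 4) are described as untreated in one place and as given saline in another. The 8 arrays shared 1 slide and 1 scan, and since each group filled one row of it, the place on the slide and the exposure cannot be told apart.

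Macrophages live in the connective tissue between thyroid follicles and clear dying cells and debris. Their survival depends on the receptor encoded by Csf1r, which binds the ligands CSF1 and IL-34. They are also a main source of C1q, whose A, B and C chains assemble into the molecule that starts the classical complement pathway on antibodies and on dying cells. Mertk, a receptor tyrosine kinase, takes part in the uptake of apoptotic cells through the bridging ligands Gas6 and protein S. In RNA of a whole gland, fewer cells of a type and less RNA per cell cannot be told apart.

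The tissue label was borne out by thyroglobulin (Tg), whose mean log2 signal was 18.9 in both groups, and by the 7 thyrocyte markers, which were all well above background. Some arrays also stood apart in markers of other cells. The mean log2 signal of the T cell markers was 13.17 on the array of control 1 and 12.06 on that of control 2, against 8.85 to 9.87 on the remaining arrays. Rag1, needed for antigen receptor assembly in immature lymphocytes, was at 11.96 and 10.64 on the same control arrays and between 2.80 and 5.45 elsewhere. On the array of exposed S588 the neutrophil markers averaged 12.28, against 8.64 to 9.72 on the other arrays, and S100a8, a calcium-binding protein abundant in neutrophils, was at 13.35 against 5.84 to 8.67. Of these lists, 6 of 7 T cell, 2 of 6 thymocyte and 7 of 10 neutrophil markers were well above background on every array of a group, while Ly6g was so on no control array and on 1 exposed array. Values without these arrays are given beside some of the results, and results without such a value may also be moved by them. The part of these cells in the results was not tested.

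**Figure D1:**
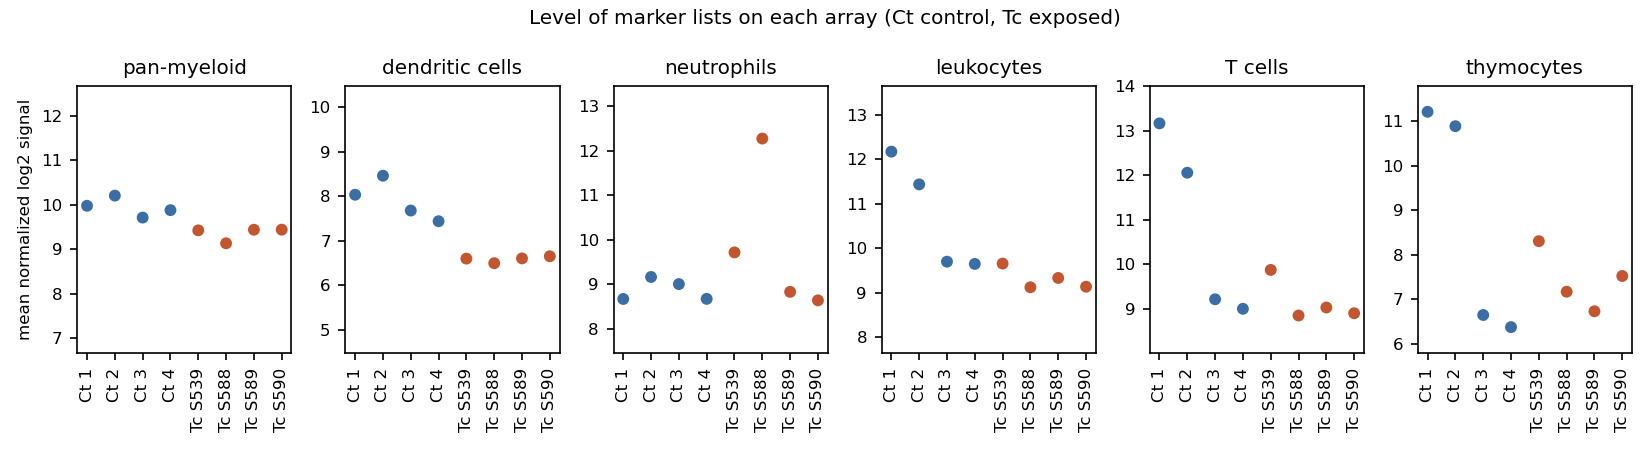
Mean normalized log2 signal of 6 marker lists (y axis) on each array (x axis; blue, control; red, exposed), over the genes of each list that were well above background. T cell and thymocyte markers stand high on controls 1 and 2, neutrophil markers on S588, and dendritic cell markers are between 7.44 and 8.46 on the control arrays and between 6.49 and 6.65 on the exposed arrays.

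The differences of the macrophage and C1q genes between exposed and control thyroids did not pass limma's threshold. Of the 10 genes, 7 had a lower and 3 a higher mean signal in the exposed group, with a median log2 fold change of −0.34. Over all 19965 RefSeq genes 53.9% were lower and the median was −0.03. In re-runs with other processing or with arrays left out, Cd163 and C1qc, both lower, changed direction in 3 each. Lyz2, which was higher, did so in 2. Cd163 was well above background on only 1 control and 2 exposed arrays. Read through the probe standing for each gene, the log2 fold changes lay between −0.63 for Csf1r and 0.63 for Cd68. The brighter Cd68 probe gave 0.23, and the other Csf1r probes gave −0.83 and 0.39. None of the 10 genes and none of the 14 probes passed an adjusted p of 0.05 in limma (lmFit and eBayes, Benjamini-Hochberg over all probes), where 0.781% of all probes and 1.22% of RefSeq genes did, and the smallest adjusted p among the members was 0.149. At an unadjusted p under 0.05 there were 2 member genes, both lower, where 8.34% of RefSeq genes were lower at that p. An ordinary equal-variance t-test gave 3 member genes at an unadjusted p under 0.05 and 0 after adjustment. The 4 exposed arrays lay entirely below the 4 control arrays for 2 genes, Csf1r and Emr1. Over all RefSeq genes the groups did not overlap in 11.9%, and they did not overlap with the exposed arrays lower in 6.4%. Without controls 1 and 2, and also without S588 in addition, 0 member genes passed, with 1 and 0 at an unadjusted p under 0.05.

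**Figure D2:**
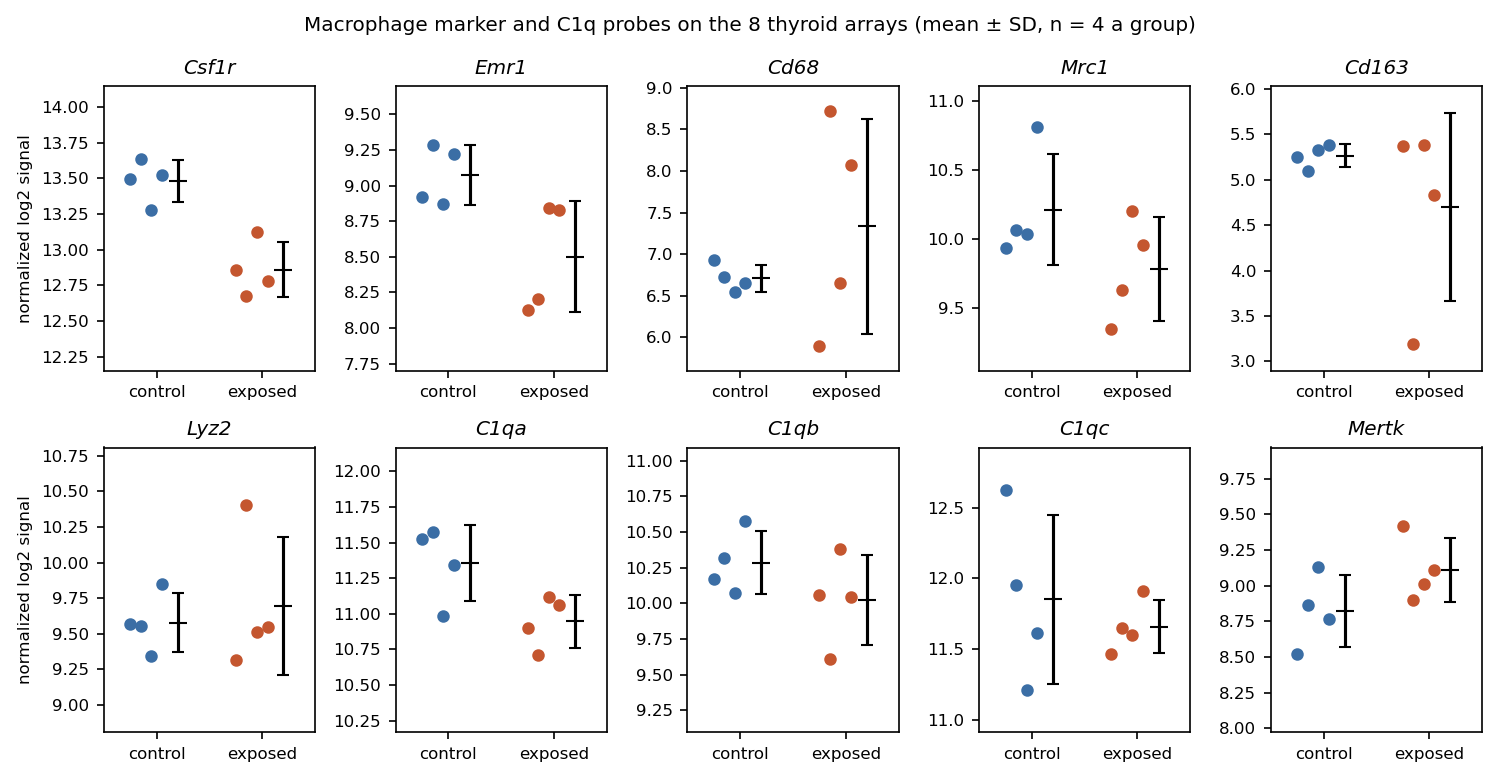
Normalized log2 signal (y axis, a scale of its own in each panel) of the probe standing for each of the 10 genes on the 4 control and 4 exposed arrays (points, one for each array), with the mean and SD of each group beside them. Exposed and control points are separated for Csf1r and Emr1 and overlap in the remaining 8 panels.

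C1qa, C1qb and C1qc lie side by side on mouse chromosome 4, where their probes span 15.9 kb on the minus strand of mm9, the build of the array files. The opening 30 bases of each probe are shown because the 3 chains belong to one protein family and a shared probe would make their signals one measurement. No pair of these probes shared a run of more than 6 bases, so the chains had separate probes. The probes were not compared with the transcripts of the other chains, so whether a probe also reads another chain was not tested. The C1qa stretch is chr4:136452439-136452468, the C1qb stretch chr4:136436608-136436637 and the C1qc stretch chr4:136445796-136445825.
C1qa: ccggccagctttctcagccattcggcagaa
C1qb: attctggggactacggggctacacagaaag
C1qc: tctgggaaccacctaatggtattattcctg

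C1qa, the A chain, had log2 signals of 11.53, 11.58, 10.99 and 11.34 on controls 1 to 4 and of 10.90, 10.71, 11.12 and 11.06 on S539, S588, S589 and S590. Only control 3 among the controls reached down into the range of the exposed arrays, of which 2 lay above it. The log2 fold change was −0.41 (SE 0.18, 95% confidence interval −0.82 to 0.0025, adjusted p = 0.413), and the exact two-sided permutation test over the 70 assignments of arrays gave p = 0.0857, where the smallest possible value is 0.0286. Without controls 1 and 2 the log2 fold change was −0.22.

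C1qb, the B chain, gave 10.17, 10.32, 10.07 and 10.58 on the controls and 10.06, 9.61, 10.38 and 10.04 on the exposed arrays. The groups overlapped, with S588 the dimmest array of all and S589 above 3 of the controls. The difference was −0.26 on the log2 scale (SE 0.20, interval −0.73 to 0.20, adjusted p = 0.620). It was −0.13 without S588, −0.16 without control 4 and −0.30 without controls 1 and 2.

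C1qc, the C chain, is the member with most spots, since its probe was printed 10 times on each array and the values are means over them. Its log2 signal was 12.63, 11.95, 11.21 and 11.61 on the controls and 11.46, 11.65, 11.60 and 11.91 on the exposed arrays. The exposed arrays all fell inside the range of the controls, which was set by controls 1 and 3. The log2 fold change of −0.19 (SE 0.30, interval −0.88 to 0.49, adjusted p = 0.812) was −0.41 without control 3 and turned to 0.066 without control 1 and to 0.25 without controls 1 and 2, whose T cell and thymocyte markers were high.

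The 3 chains therefore did not keep one order of arrays. Centred on group means over the 8 arrays, which share 1 slide, Pearson's r was 0.60 between C1qa and C1qb and 0.70 between C1qa and C1qc, and it was −0.05 between C1qb and C1qc. Csf1r correlated with C1qa (r = 0.80) and C1qb (r = 0.82) more than with C1qc (r = 0.24). These values describe 8 arrays and carry no test.

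**Figure D3:**
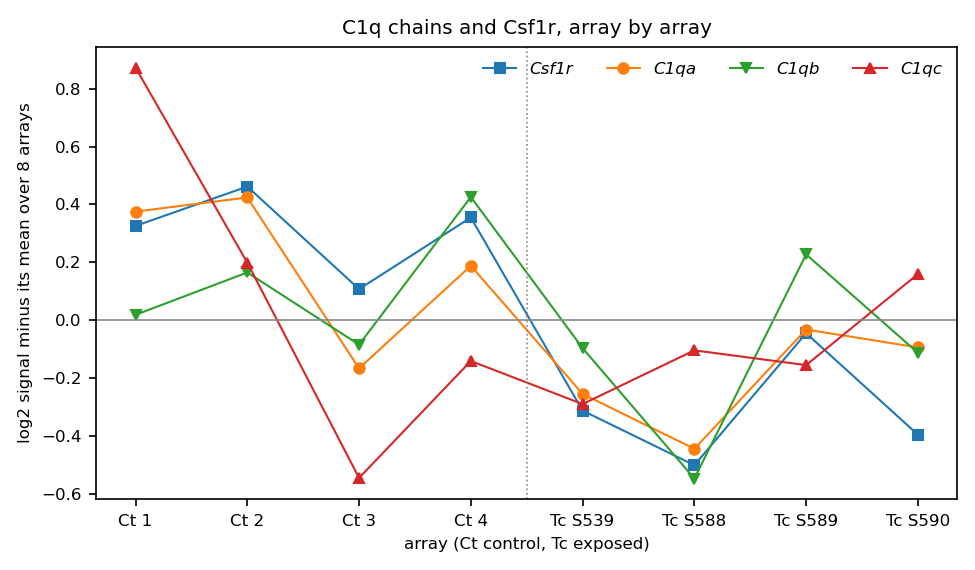
Log2 signal of the C1q chains and Csf1r, each minus its own mean over the 8 arrays (y axis), on the control (Ct) and exposed (Tc) arrays (x axis; the lines join the values of a gene for reading only). C1qa, C1qb and Csf1r move alike over most arrays, while C1qc is highest on control 1 and lowest on control 3.

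The 250 bases before the transcription start of C1qb and C1qc, from RefSeq promoters of GRCm38.p6, are shown for a shared element of myeloid genes, the PU box GAGGAA, bound by the macrophage regulator PU.1 (Spi1). Capitals mark GAGGAA on either strand (TTCCTC on the printed strand when it lies on the other). The C1qb window is chr4:136886201-136886450 and the C1qc window chr4:136892915-136893164, both on the minus strand and printed 5′ to 3′.
C1qb: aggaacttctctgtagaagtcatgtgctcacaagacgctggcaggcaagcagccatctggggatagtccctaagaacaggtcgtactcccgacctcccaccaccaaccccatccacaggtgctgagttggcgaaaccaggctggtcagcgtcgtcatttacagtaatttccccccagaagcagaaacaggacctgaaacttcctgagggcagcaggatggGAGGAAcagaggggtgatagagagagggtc
C1qc: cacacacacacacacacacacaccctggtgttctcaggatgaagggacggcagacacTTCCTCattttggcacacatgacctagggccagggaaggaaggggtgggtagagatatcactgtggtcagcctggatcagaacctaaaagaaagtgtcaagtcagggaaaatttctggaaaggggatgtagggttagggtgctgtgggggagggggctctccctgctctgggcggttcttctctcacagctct
The letters begin 30 bases before the start of C1qb and 193 before that of C1qc. Among the 7 members with an entry in the table, 4 held the letters (C1qb, C1qc, Cd68 and Mrc1) and Cd163, Lyz2 and Mertk did not, while 23.3% of all 32851 windows of this length held them. A match of letters describes the sequence and is not evidence of a site.

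Csf1r, on chromosome 18, gave the smallest adjusted p of the members, and its probes did not run the same way. The probe that stands for it (A_55_P2025078) had log2 signals of 13.50, 13.63, 13.28 and 13.53 on the controls and of 12.86, 12.67, 13.13 and 12.78 on the exposed arrays. All exposed arrays lay below all controls. Csf1r thus differed by −0.63 on the log2 scale (SE 0.15, interval −0.98 to −0.27), 1.54-fold lower in exposed thyroids, with an adjusted p of 0.149 in limma and an exact permutation p of 0.0286, the smallest the design can give. Without controls 1 and 2 the difference was −0.54 (adjusted p = 0.327).

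A dimmer Csf1r probe (A_52_P602091) also had a lower mean in exposed thyroids, with a log2 fold change of −0.83 (SE 0.26, adjusted p = 0.254). Its values were 7.78, 8.53, 8.51 and 8.92 on the controls and 7.76, 7.37, 7.86 and 7.43 on the exposed arrays, so S589 overlapped with control 1. The remaining probe (A_55_P2025073), listed under the same RefSeq transcript and placed nearer to its start, was higher on every exposed array, at 9.65, 9.88, 9.77 and 9.68 against 9.47, 9.26, 9.45 and 9.23. Its log2 fold change was 0.39 (SE 0.13, adjusted p = 0.287), in the opposite direction to the other probes. The exact permutation p was 0.0286 for this probe too. With the mean over the probes of each gene, the log2 fold change of Csf1r was −0.35 (adjusted p = 0.297), and over 19 alternatives it stayed between −0.71 and −0.35 with an adjusted p of 0.0518 to 0.425.

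Among the ligands and lineage regulators around this receptor, 0 of 12 measured genes passed the threshold, with a median log2 fold change of −0.11. The ligands themselves, named for that role after their values were seen, differed by 0.31 for Il34 and −0.20 for Csf1. Among the brightest genes of the list were Cebpb (1.01), Nr1h3 (0.45) and Csf2ra (0.19). Cebpb, a transcription factor of myeloid and other cells, had an adjusted p of 0.0990 with the 4 exposed arrays above the controls.

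Mertk had log2 signals of 8.52, 8.87, 9.13 and 8.77 on the controls and of 9.42, 8.90, 9.01 and 9.11 on the exposed arrays. Only S539 lay above every control. The difference was 0.29 (SE 0.18, interval −0.13 to 0.71, adjusted p = 0.551), and it was positive under all 19 alternatives, between 0.16 without controls 1 and 2 and 0.39 without control 3, with 0.19 without S539.

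The bridging ligands of Mertk were higher in exposed thyroids and passed limma's threshold. Under 19 alternatives Gas6 passed it in 9 and Pros1 in 12. Gas6 was at 14.93, 14.77, 15.07 and 14.91 on the controls and at 16.75, 15.91, 16.42 and 16.08 on the exposed arrays, a log2 fold change of 1.37 (SE 0.20, adjusted p = 0.0308). Pros1, which encodes protein S, was at 10.36, 10.48, 10.70 and 10.87 on the controls and at 12.05, 11.67, 12.06 and 11.86 on the exposed arrays, a log2 fold change of 1.31 (SE 0.17, adjusted p = 0.0199). No exposed array overlapped a control for either ligand. They were the called genes among the 16 measured for TAM receptors and apoptotic cell uptake, whose median was 0.17, and among RefSeq genes 0.917% were called higher. The sister receptors Axl and Tyro3, named for that role, differed by 0.23 and 0.21, and Mfge8 and Itgb5, the next brightest of the list, by 0.13 and 0.22. Without controls 1 and 2 the log2 fold change was 1.30 for Gas6 (adjusted p = 0.186) and 1.13 for Pros1 (adjusted p = 0.124), past the threshold for neither.

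**Figure D4:**
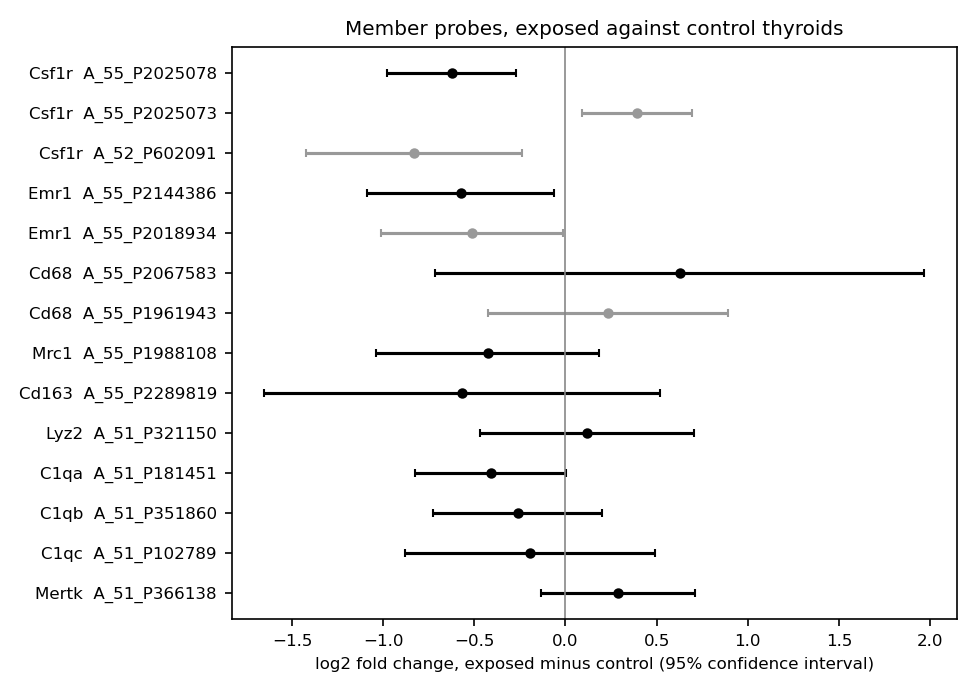
Log2 fold change (x axis, exposed minus control) of the 14 member probes with limma's 95% confidence interval (bars); black points stand for the gene and grey points are its other probes. The interval excludes 0 for the Csf1r and Emr1 probes, with 1 Csf1r probe on the other side, before adjustment for the number of probes.

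Emr1 (the older symbol of Adgre1) encodes an adhesion G protein-coupled receptor, the surface antigen most used to mark mouse macrophages. Its probe in chr17:57622868-57622897 (opening bases printed here) gave 8.92, 9.29, 8.87 and 9.22 on the controls and 8.12, 8.20, 8.84 and 8.83 on the exposed arrays. All exposed arrays lay below all controls, with S589 and S590 just under the dimmest control and S539 and S588 well below. The log2 fold change was −0.58 (SE 0.22, adjusted p = 0.362, exact permutation p = 0.0286), and it was −0.55 without controls 1 and 2 and −0.49 without S588. Its other probe, in chr17:57620350-57620379, gave −0.51 (SE 0.22, adjusted p = 0.399), with S590 above controls 1 and 3. These probes, which share no run of more than 6 bases, are shown since they read the transcript at separate places and gave like differences.
Emr1, probe of higher signal: ggtgttccagaaattctcatttaataccca
Emr1, other probe: atgaatataagaaactcctcaccaggaaga

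Cd68 encodes a lysosomal glycoprotein of macrophages, and its probes gave different pictures. The probe annotated with a RefSeq accession had log2 signals of 6.93, 6.72, 6.54 and 6.65 on the controls and of 5.90, 8.72, 6.66 and 8.07 on the exposed arrays. S588 and S590 lay above every control, S539 below every control and S589 among them. The mean difference was 0.63 (SE 0.58, interval −0.72 to 1.97, adjusted p = 0.684), and it was 0.17 without S588, 0.38 without S590 and 1.10 without S539. The probe annotated with an Ensembl transcript gave 11.84, 11.29, 10.54 and 11.10 on the controls and 11.11, 11.57, 11.30 and 11.71 on the exposed arrays, which overlapped throughout, and its log2 fold change was 0.23 (SE 0.28, adjusted p = 0.762). The accession of the former probe was not found in the RefSeq table used here, whereas the accessions of the 12 RefSeq probes of the other members were. The stretches are chr11:69479009-69479038 and chr11:69477805-69477834 of mm9, minus strand, and share no run of more than 4 bases, so the signals come from separate parts of the gene.
Cd68, RefSeq-annotated probe: ccgaatcctatacccaattcagggtggaag
Cd68, Ensembl-annotated probe: gcctcatctcttcaccatgccactgactca

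Mrc1 encodes the mannose receptor CD206, a lectin of tissue macrophages. It gave 9.93, 10.07, 10.04 and 10.81 on the controls and 9.35, 9.63, 10.21 and 9.96 on the exposed arrays. S539 and S588 lay below every control, while S589 was above all controls but the bright control 4. Mrc1 differed by −0.43 on the log2 scale (SE 0.26, interval −1.04 to 0.19, adjusted p = 0.546). The difference was −0.22 without control 4, −0.28 without S539 and −0.64 without controls 1 and 2.

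Cd163, a scavenger receptor for haemoglobin bound to haptoglobin, was the dimmest member and was well above background on 1 control and 2 exposed arrays. Its log2 signals were 5.25, 5.10, 5.33 and 5.39 on the controls and 5.38, 3.20, 5.39 and 4.84 on the exposed arrays. S539 and S589 lay at the level of the brightest controls, S590 was below every control and S588 far below. The log2 fold change of −0.57 (SE 0.47, adjusted p = 0.647) was −0.07 without S588, and it was 0.093 in the deposited log2 values, from which no background is subtracted.

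Lyz2 encodes lysozyme M, made by macrophages and also by neutrophils. It gave 9.57, 9.55, 9.34 and 9.85 on the controls and 9.32, 10.40, 9.51 and 9.55 on the exposed arrays. The brightest array was S588, the array with high neutrophil markers, and the other exposed arrays lay within or just below the controls. Lyz2 differed by 0.12 on the log2 scale (SE 0.25, interval −0.47 to 0.70, adjusted p = 0.875) and turned to −0.12 without S588, and it was 0.24 without S539 and 0.041 without control 3. The probe of the neighbouring paralogue Lyz1 was looked at after the values of Lyz2 were seen. It shared no run of more than 6 bases with the Lyz2 probe and had a log2 fold change of −0.46 (SE 0.23, adjusted p = 0.468). Only the probes were compared with each other, so whether the Lyz2 probe also reads the Lyz1 transcript was not tested.
Lyz2, chr10:116719205-116719234: aacgttgtgagtttgccagaactctgaaaa
Lyz1, chr10:116724892-116724921: ccaataaccacaggagcaaatctaatctca

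The markers thus did not vary as one block over the arrays. With arrays centred on group means, r was −0.88 between Cd163 and Lyz2 and −0.85 between Cd163 and the RefSeq-annotated probe of Cd68, all 3 of which had their extreme value on S588, and it was 0.75 between Emr1 and Mrc1 and 0.61 between Csf1r and Emr1. The genes most like the mean of the C1q chains in this measure, among the 19564 genes whose mean log2 signal reached 7, were an uncharacterised transcript on chromosome 17 (probe A_30_P01032529, r = 0.98), Il25 (0.96), the transcript cluster TC1664635 (0.95), Nup62 (0.95) and Nfatc3 (0.95). Of the other members at that signal, Csf1r ranked 395 among them, Emr1 1369, Mrc1 5224, Cd68 9839, Lyz2 11321 and Mertk 17935, the last with an r of −0.56. With 8 arrays and so many genes, high values of r arise readily.

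In the rest of the complement system no gene passed the threshold. Of 22 measured genes of the cascade 0 were called, 1 was lower at an unadjusted p under 0.05, and the median log2 fold change was −0.01. Among the brightest were Cfd, which encodes factor D of the alternative pathway (−0.20), the central component C3 (−0.11) and C4b (0.35). C1s and C1ra, named after their values were seen because their proteases travel with C1q, differed by −0.08 and −0.43. Of 16 complement receptors and regulators 0 were called, with a median of −0.08, and the brightest were Itgam (0.79), Calr (−0.23), Serping1 (−0.44), the inhibitor of the C1 proteases, and Cd93 (−0.19).

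Among 20 other myeloid and macrophage genes, 2 fell, Cx3cr1 and Cybb, and 18 did not pass. In 7 of the 20 all exposed arrays lay below all controls (6.4% of RefSeq genes) and in 1 they lay above (5.52%), and the median log2 fold change was −0.46. Cx3cr1, the fractalkine receptor of monocytes, macrophages and some dendritic cells, was at 10.63, 11.46, 10.79 and 10.47 on the controls and at 8.60, 8.53, 8.17 and 8.32 on the exposed arrays. It fell by 2.43 on the log2 scale (SE 0.24, adjusted p = 0.00714), its other probe fell by 3.43 (adjusted p = 0.00845), and it was still called without controls 1 and 2 (−2.24, adjusted p = 0.0379). Cybb, the catalytic subunit of the phagocyte NADPH oxidase, was at 7.13, 7.20, 6.52 and 6.60 on the controls and at 5.70, 5.56, 5.61 and 5.52 on the exposed arrays. It fell by 1.27 (SE 0.19, adjusted p = 0.0337), it was past the threshold in 4 of 19 alternatives, and without controls 1 and 2 it was not (−0.95, adjusted p = 0.114). The brightest genes of the list were Sepp1 (−0.19), Pf4 (−0.13), Ctss (−0.87) and Fcer1g (−0.43), none of them called. Among RefSeq genes 0.306% were called lower.

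Scavenger and lectin receptors (12 measured, 0 called, median −0.28) included Mgl2 at −0.03, Folr2 at −0.28, Clec10a at −0.28 and Lyve1 at 0.52. Lysosomal genes (17 measured, 0 called, median −0.14) included Lamp1 at −0.10, Cd63 at −0.15, Ctsd at 0.55 and Ctsb at 0.04, none past the threshold. Of 16 macrophage activation genes 1 fell, Arg1, which encodes arginase 1. Arg1 was well above background on 2 control arrays and on no exposed array, so the size of its fall is uncertain. Its log2 fold change was −2.20 on the background-subtracted scale (adjusted p = 0.0232). It was −0.63 with normexp background correction and −0.75 in the deposited values. Arg1 was not called without controls 1 and 2 (adjusted p = 0.159). The brightest of that list were Retnla (−0.49), Cd80 (0.45), Nos2 (−0.64) and Cxcl10 (−1.60), and its median was −0.53.

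Dendritic cells share many genes with macrophages, and 1 of their 8 markers fell. Clec9a, a receptor of cross-presenting dendritic cells for dead cell debris, was well above background on 4 control arrays and no exposed array. The size of its fall is therefore uncertain. Its log2 fold change was −2.92 on the background-subtracted scale (adjusted p = 0.00746, and 0.0518 without controls 1 and 2). It was −1.08 with normexp and −1.15 in the deposited values. The other Clec9a probe gave −1.71 and did not pass (adjusted p = 0.121). The brightest markers of the list were Cd209a (−1.34), Ccr7 (−1.46), Itgax (−2.09) and Batf3 (−0.76), none of them called. The remaining markers were Zbtb46 (−0.22), Flt3 (−0.43) and Xcr1 (−0.05), the last well above background on no array. The median of the list was −1.05. Ccr7 was at 10.31 and 9.05 on controls 1 and 2. On controls 3 and 4 it was at 7.36 and 7.23, inside the range of the exposed arrays (6.45 to 7.76). Monocyte markers (6 measured, 0 called, median −0.26) included Ly6c1 at 0.32, Fn1 at −0.24, Plac8 at −0.27 and Ccr2 at −0.75, and neutrophil markers (10 measured, 0 called, median 0.95) included Csf3r at 0.26, S100a9 at 1.59 and Lcn2 at 1.13, with S588 far above the other arrays for S100a9.

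**Figure D5:**
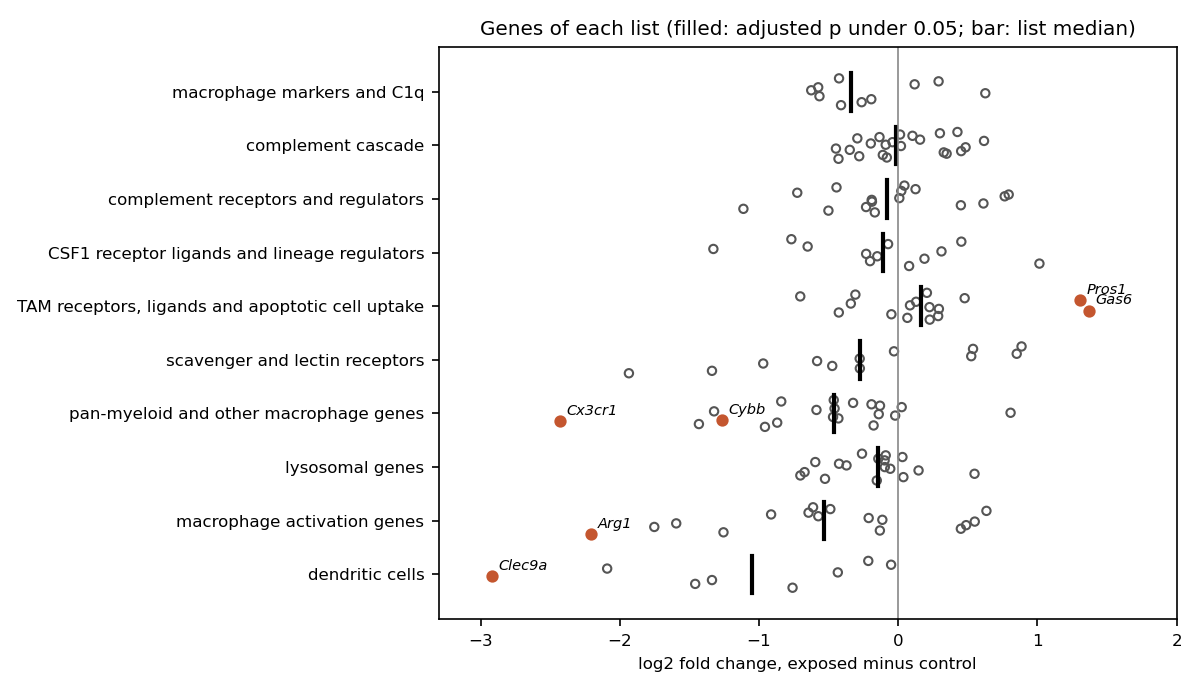
Log2 fold change (x axis, exposed minus control) of each gene in 10 lists (rows; circles, with filled ones past an adjusted p of 0.05; vertical bars, list medians). The macrophage and C1q genes have no filled circle and a median of −0.34, Gas6 and Pros1 stand to the right, and Cx3cr1, Cybb, Arg1 and Clec9a stand to the left.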

How the data were processed

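The authors deposited the scanner intensity of every spot, read by Agilent Feature Extraction 10.7.3.1, with and without background subtraction (signals not above background are replaced by a surrogate), and a table of log2 values. The deposited log2 values were within 0.0378 of log2 median spot signals after quantile normalization. Here the log2 of the background-subtracted intensity was quantile-normalized over 59305 non-control spots, averaged per probe and compared by limma 3.58.1 (R 4.3.3; lmFit and eBayes without covariates), adjusted by Benjamini-Hochberg over 55681 probes and a threshold of 0.05. A gene was read by its RefSeq probe of highest mean signal. Named genes were all members, called genes and up to 4 of the brightest of each of 21 lists (214 genes), 5 genes most like C1q, and Actb (log2 fold change −0.21, adjusted p = 0.717), and some of these are not reported here. The members and lists were chosen with earlier results of these data known. The study's methods describe the arrays of a group as biological replicates, so p-values measure the spread between thyroids. Alternatives covered the scaling, background correction, probe filter, test, outlier marks, choice of probe and arrays left out. Between 60.5% and 77.3% of spots were well above background, none was saturated, and precision is limited by having 4 arrays a group. The scripts were tested on simulated data. Positions are those of the array files (mm9), and RefSeq sequences are of GRCm38.p6.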

Additional observations from a re-analysis of the deposited data

Results flagged for a closer look

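Single arrays were compared with the rest of their group by Dixon's gap over range in 70 groups of 4, for the 14 member probes and 21 lists. In 5 groups an array stood apart, and chance gives about 1 in 20. Mrc1 on control 4 was one of them, at a log2 signal of 10.81 against 10.07 for the next control (gap over range 0.849). The pan-myeloid list was lowest on S588, at 9.13 against 9.42 for the next exposed array (0.948). Mast cell markers were lowest on control 3, at 8.56 against 9.03 (0.845). Adipocyte markers were lowest on control 1, at 14.16 against 14.56 (0.905). Thyrocyte markers were lowest on S589, at 12.41 against 12.53 (0.963).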

How the results depend on the processing

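Under all alternatives run, 0 member probes and 0 member genes passed the threshold. Of 188 recomputed log2 fold changes of the members, 180 kept their direction. The exceptions were Cd163 with normexp background correction (0.082), without background correction (0.093) and in the deposited values (0.093), C1qc without control replicate 1 (0.066; −0.41 to 0.066 over the arrays left out), without controls 1 and 2 (0.25) and also without S588 (0.25), and Lyz2 without S588 (−0.12; −0.12 to 0.24) and without all 3 of these arrays (−0.14). The cause was not tested. The number of probes called, 435, was 856 with normexp, 962 without background correction and 955 in the deposited values. It was 733 after a filter on dim probes, 744 with a variance trend and 289 by an ordinary equal-variance t-test. Leaving out 1 array gave 100 to 485 probes. The 7 called genes of the other lists became 16 with normexp, without background correction and in the deposited values, 14 after the filter and 15 with the trend, and 2 to 6 when 1 array was left out, with 2 without control 2 or S590, 3 without S589 and 4 without control 3 or S539. The last settings were chosen after seeing the data: without controls 1 and 2 there were 83 probes and 1 such gene, and without S588 in addition 0 and 0 (6716 probes and 40 genes at an unadjusted p under 0.05). Cx3cr1 was called in 18 of 19 alternatives, Clec9a in 17, Slc5a5 in 14, Pros1 in 12, Gas6 in 9 and Cybb in 4, and Arg1 in 7 of 17. Scaling to the 75th percentile moved the median of all probes to 0.16, and no member changed direction under it. No paired analysis was possible because the control and exposed arrays share no replicate number. Cd163 and Arg1 were not well above background on most arrays, and the Cd163 probe was not tested after the filter.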

Other observations

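Markers of other cells of the gland were read with the same fit. Of 7 thyrocyte markers 1 fell, Slc5a5, which encodes the sodium/iodide symporter, with a log2 fold change of −3.53 (SE 0.41, adjusted p = 0.0137, and 0.0833 without controls 1 and 2), while Tg differed by 0.04 and Pax8 by −0.58. No marker of mast cells (6 measured, median −0.58), fibroblasts (6 measured, median −0.46), endothelium (6 measured, median 0.04), B cells (6 measured, median −0.36), adipocytes (5 measured, median 0.55) or skeletal muscle (5 measured, median −0.94) passed the threshold, nor did any of 7 T cell, 6 thymocyte or 4 leukocyte markers (medians −1.82, −2.01 and −1.67). These last medians include controls 1 and 2, where the mean log2 signals of those lists were highest. On controls 3 and 4 the T cell mean lay inside the exposed range of 8.85 to 9.87. The thymocyte mean was 6.65 and 6.37 there, below the exposed range of 6.73 to 8.31. The leukocyte mean was 9.69 and 9.64, against 9.12 to 9.65 on the exposed arrays. The difference between the mean log2 signal of the C1q chains and that of Csf1r, a contrast of probes within an array looked at after the values were seen, lay between −2.52 and −2.06 on the control arrays and between −2.09 and −1.77 on the exposed arrays, with control 1 inside the exposed range.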
